A study of Mus musculus with 12 samples.

Results

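Lupron added to an antibody against CSF1 was examined in mouse prostate tumours by bulk RNA-seq. The 3 libraries titled Lupron/anti-CSF1 were compared with the 3 titled anti-CSF1, which makes 6 of the 12 libraries in the series. All tumours grew orthotopically in C57BL/6J mice after 100000 PTE-82 cells, which the labels describe as prostate cancer cells expressing TMPRSS2-ERG, were injected in 40 µl of PBS and Matrigel. Both groups received anti-CSF1 on days 9 and 14, and the Lupron/anti-CSF1 mice also received 0.6 mg of Lupron on day 4. Tumours were taken on day 17 after perfusion with PBS. The remaining 6 libraries, 3 titled Lupron and 3 titled IgG, were used only to set the same Lupron contrast beside this one in mice without the antibody. The sources used here do not say whether mice given Lupron alone also received IgG. The animals' age and sex are not stated in the labels, and every tumour came from the same line of injected cells.

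Lupron (leuprolide) is a GnRH agonist. Given continuously it desensitises the pituitary, luteinising hormone falls, and the testes stop making testosterone, so it serves as a medical castration. Prostate luminal cells depend on androgen, which switches on secretory and metabolic genes. CSF1 is the growth factor that keeps most tissue macrophages alive through its receptor Csf1r, and an antibody against it lowers macrophage numbers. The contrast compares tumours given Lupron and then the antibody with tumours given the antibody alone.

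The 6 libraries held 20584363 to 29965355 counts and had RNA integrity numbers of 8.7 to 9.8. Levels are given as CPM, the count of a gene relative to the scaled library total, in the order of replicates 1, 2 and 3. The labelled groups were checked on Csf1r, Erg and prostate genes. On the scale of all 12 libraries Csf1r stood at 27.1, 10.9 and 25.3 CPM in the anti-CSF1 libraries and at 24.0, 15.1 and 19.8 CPM in the Lupron/anti-CSF1 libraries. The 6 libraries without the antibody held 51.9 to 148 CPM, above all 6 with it. In bulk tissue, fewer cells of a type and less RNA per cell cannot be told apart. Erg lay between 13.5 and 22.1 CPM in the 6 libraries, and the prostate lineage factor Hoxb13 between 8.06 and 14.0 CPM. The sources used here do not say whether reads of the fusion fall into the Erg row. The libraries differed in genes of the surrounding organs. Genes of seminal vesicle secretion took 10.4, 5.19 and 0.0287% of the counts in the anti-CSF1 libraries and 0.395, 4.81 and 7.84% in the Lupron/anti-CSF1 libraries, so libraries at either end sat in both groups.

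No gene passed the test. Of 14075 genes tested with edgeR's quasi-likelihood fit, 0 (0%) had a Benjamini-Hochberg adjusted p under 0.05, and 587 (4.17%) had an unadjusted p under 0.05. Of these, 246 (1.75%) were higher and 341 (2.42%) were lower with Lupron added. The same contrast in limma's voom fit called 0 genes. DESeq2's Wald test called 36 of 13797 genes (0.261%), of which 12 (0.087%) were higher and 24 (0.174%) lower. The groups did not overlap for 1397 genes (9.93%), 645 higher (4.58%) and 752 lower (5.34%), and estimates were positive for 7196 genes (51.1%). The genes described here are therefore those of smallest p in each direction among genes that are not predicted ones, 12 lower and 12 higher, and gene lists written for this tumour and treatment. All of these values are differences in level that did not pass the main test. DESeq2 called all 12 of the lower genes and 7 of the 12 higher ones. The genes were picked by p and lack of overlap in the same counts, so these calls are not independent support. Gm4951, a predicted gene that the naming rule leaves out, had a smaller p than each of the 12 higher genes, with a log2 fold change of 0.87 and a DESeq2 adjusted p of 0.0064.

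**Figure D1:**
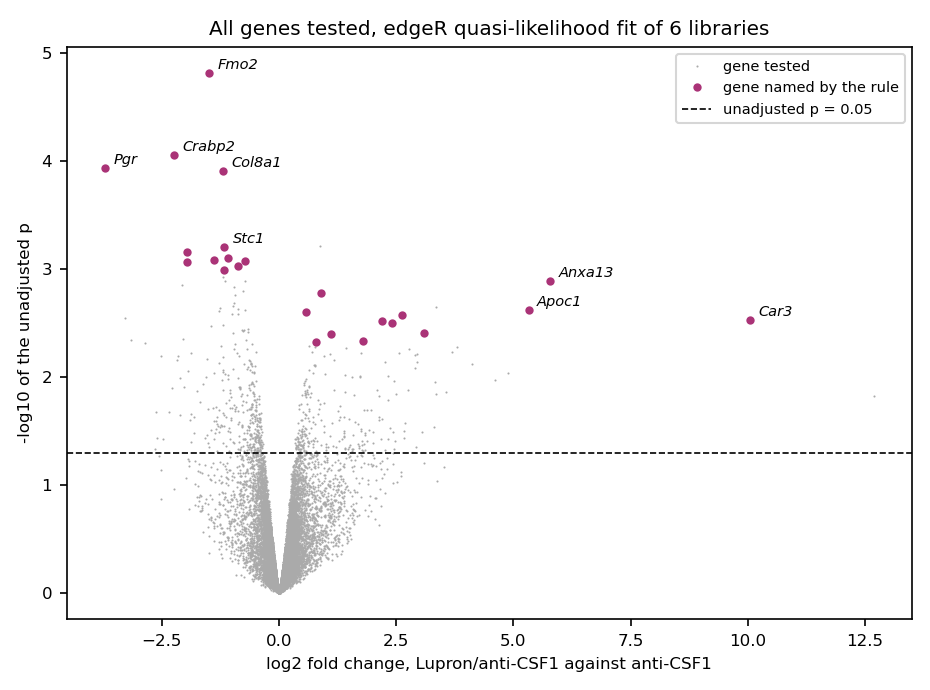
Each point is 1 of the 14075 genes tested, with the log2 fold change of Lupron/anti-CSF1 against anti-CSF1 on the x axis and the negative log10 of the unadjusted edgeR p on the y axis. Fmo2, Crabp2, Pgr and Col8a1 sit highest on the lower side, and Car3, Anxa13 and Apoc1 lie far to the right at larger p.

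The lower genes were led by Fmo2, Crabp2, Pgr and Col8a1, and in each of these every Lupron/anti-CSF1 library lay below every anti-CSF1 library. Fmo2 encodes a flavin-containing monooxygenase and lies on chromosome 1 at chr1:162874317-162898758 of mm10. Its levels were 27.7, 29.7 and 29.7 CPM with anti-CSF1 and 9.43, 11.4 and 10.2 CPM with Lupron/anti-CSF1. The log2 fold change was -1.49 ± 0.16 (SE, n = 3 per group), with an edgeR adjusted p of 0.215 and a DESeq2 adjusted p of 4.23e-10. The 3 libraries of each group sat close together, with an SD of 1.18 CPM among the anti-CSF1 libraries and 1.01 CPM among the Lupron/anti-CSF1 libraries. Picking genes by p favours a small spread, so this is not a separate result.

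Another of the lower genes was Pgr, the progesterone receptor, whose transcription in many tissues follows the oestrogen receptor. Pgr, at chr9:8898900-8968611, measured 2.35, 5.90 and 4.23 CPM with anti-CSF1 and 0.387, 0.317 and 0.238 CPM with Lupron/anti-CSF1. These levels rest on 317 counts in the first group and 23 in the second. The log2 fold change was -3.71 ± 0.53, the most negative of all genes tested, with an edgeR adjusted p of 0.436. Esr1, the oestrogen receptor alpha, measured 56.8, 35.7 and 81.4 CPM with anti-CSF1 and 31.7, 26.1 and 66.5 CPM with Lupron/anti-CSF1, so its groups overlapped. Greb1, a gene known to be induced by oestrogen, measured 32.4, 42.4 and 46.9 CPM with anti-CSF1 and 17.3, 23.9 and 22.5 CPM with Lupron/anti-CSF1. DESeq2 called it, but it falls outside the rule for named genes and was chosen after its values were seen. Of 14 steroid receptors and cofactors tested, 3 had positive and 11 had negative estimates, and Pgr was the 1 with an unadjusted p under 0.05. The median of the list was -0.10, beside 0.01 over all genes tested. No list of oestrogen targets was examined, and the part of oestrogen in these values was not tested.

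Crabp2, at chr3:87948693-87953372, carries retinoic acid to its nuclear receptor. It measured 26.3, 14.6 and 19.9 CPM with anti-CSF1 and 2.94, 5.38 and 4.51 CPM with Lupron/anti-CSF1, a log2 fold change of -2.25 ± 0.31. Col8a1, at chr16:57624256-57754737, encodes a short-chain collagen of vessel walls and stroma. It measured 68.6, 49.0 and 64.5 CPM with anti-CSF1 and 25.5, 26.0 and 28.1 CPM with Lupron/anti-CSF1, a log2 fold change of -1.19 ± 0.17. Both had an edgeR adjusted p of 0.436, the same as Pgr. The spread among the combination libraries was narrow for Col8a1, 1.36 CPM as an SD, against 10.3 CPM among the anti-CSF1 libraries.

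The other 8 lower genes had an edgeR adjusted p of 0.984. Cyp7b1, an enzyme that hydroxylates oxysterols and androgen metabolites, measured 17.0, 12.3 and 12.4 CPM with anti-CSF1 and 4.48, 7.02 and 4.55 CPM with Lupron/anti-CSF1, a log2 fold change of -1.38 ± 0.27. Nr1d1, the clock repressor also called REV-ERB alpha, measured 50.04, 54.0 and 50.3 CPM with anti-CSF1 and 32.2, 32.0 and 28.6 CPM with Lupron/anti-CSF1, a log2 fold change of -0.73 ± 0.14. Krt8, a keratin of simple and luminal epithelium, measured 113, 97.8 and 69.0 CPM with anti-CSF1 and 51.6, 36.1 and 36.7 CPM with Lupron/anti-CSF1. Its usual partner Krt18 did not share this pattern, with 95.7, 65.8 and 48.1 CPM against 64.8, 63.2 and 114 CPM. Fstl3, a secreted protein that binds activin and myostatin, measured 25.3, 38.5 and 40.5 CPM with anti-CSF1 and 15.2, 17.5 and 16.1 CPM with Lupron/anti-CSF1. Stc1, the secreted glycoprotein stanniocalcin, had a log2 fold change of -1.17 ± 0.22, and the homeobox gene Zfhx4 one of -0.87 ± 0.17. Bhlhe22, a transcription factor known from neurons, had a log2 fold change of -1.96 ± 0.37 from a mean of 6.08 CPM with anti-CSF1. The row labelled Il8, a symbol that RefSeq lists as a synonym of the chemokine gene Cxcl15, measured 4.26, 7.92 and 4.86 CPM with anti-CSF1 and 1.66, 1.53 and 1.19 CPM with Lupron/anti-CSF1. The groups did not overlap in any of the 8, a condition of the naming rule.

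**Figure D2:**
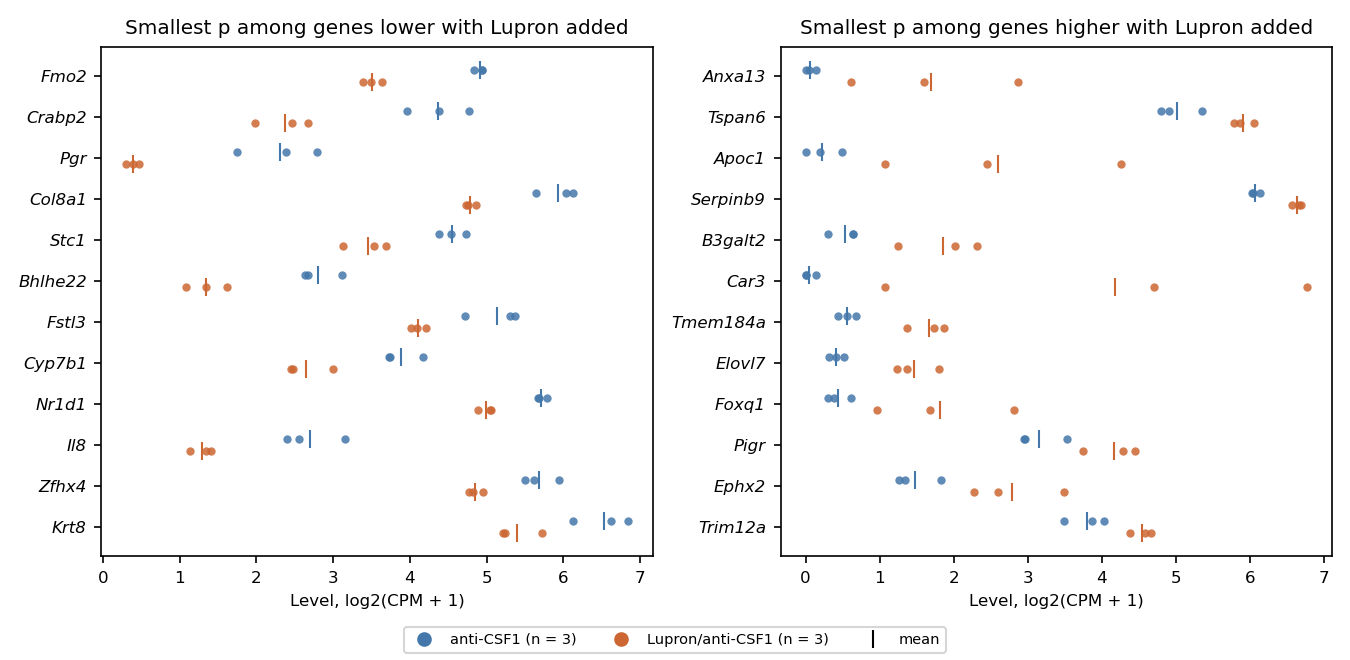
Levels as log2(CPM + 1) of the 24 named genes in the 3 anti-CSF1 and 3 Lupron/anti-CSF1 libraries, with 1 point per library and a tick at the group mean. The lower genes on the left form tight groups, which picking by p and lack of overlap favours. Anxa13, Apoc1 and Car3 on the right are near 0 in all anti-CSF1 libraries and spread widely among the Lupron/anti-CSF1 libraries.

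Some of the higher genes had a steady level in the combination, some were carried mostly by 1 library, and others lay between. Serpinb9, an inhibitor of granzyme B, belonged to the first kind, with 64.1, 69.3 and 65.2 CPM with anti-CSF1 and 101, 102 and 94.3 CPM with Lupron/anti-CSF1. Its log2 fold change was 0.58 ± 0.13, with an edgeR adjusted p of 0.984 and a DESeq2 adjusted p of 0.042. Tspan6, a tetraspanin on the X chromosome, measured 27.0, 40.0 and 29.1 CPM with anti-CSF1 and 65.4, 57.4 and 54.5 CPM with Lupron/anti-CSF1. Pigr, the receptor that carries polymeric antibodies across secretory epithelium, measured 10.6, 6.79 and 6.75 CPM with anti-CSF1 and 20.8, 12.4 and 18.6 CPM with Lupron/anti-CSF1, a log2 fold change of 1.10 ± 0.28. Trim12a, a TRIM family gene with the close paralog Trim12c, had a log2 fold change of 0.78 ± 0.20, and reads may be split between the pair. Elovl7, a fatty acid elongase induced by androgen, measured 0.436, 0.328 and 0.245 CPM with anti-CSF1 and 1.35, 1.58 and 2.48 CPM with Lupron/anti-CSF1. Its log2 fold change was 2.41 ± 0.58 from 27 counts in the first group and 138 in the second.

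Anxa13, Apoc1 and Car3 were all highest in Lupron/anti-CSF1 replicate 1. Anxa13, an annexin of epithelial cells, measured 0.0335, 0 and 0.105 CPM with anti-CSF1 and 6.30, 0.528 and 2.04 CPM with Lupron/anti-CSF1. Apoc1, an apolipoprotein, measured 0.402, 0 and 0.140 CPM with anti-CSF1 and 18.1, 1.11 and 4.44 CPM with Lupron/anti-CSF1. Car3, a carbonic anhydrase abundant in fat and muscle, measured 0.101, 0 and 0 CPM with anti-CSF1 and 108, 1.11 and 25.1 CPM with Lupron/anti-CSF1. Car3 held 3 counts in the first group and 3565 in the second, a ratio of 1276 with a counting interval of 436 to 6188 that covers counting error only. Without Lupron/anti-CSF1 replicate 1 the ratio was 418, with an interval of 143 to 2033. The order of the combination libraries, 1 above 3 above 2, was also that of the adipocyte genes Adipoq and Cfd described below, and Car3 is itself on the fat list. The transcription factor Foxq1 had the same order, with 6.03, 0.950 and 2.21 CPM in the combination after 0.302, 0.234 and 0.525 CPM with anti-CSF1. Ephx2, the soluble epoxide hydrolase, also followed it, with 10.2, 3.85 and 5.06 CPM after 2.55, 1.41 and 1.54 CPM. B3galt2, a galactosyltransferase, and Tmem184a had log2 fold changes of 2.63 ± 0.62 and 2.2 ± 0.52, with means of 2.80 and 2.19 CPM in the combination.

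The promoters of the named genes were searched on both strands for AGAACA, a hormone response half-site recognised by several steroid receptors, because Lupron lowers a steroid hormone. RefSeq's promoter table for GRCm38.p6 held 7 of the 12 lower and 7 of the 12 higher genes. The half-site lay within 300 bases (250 before to 50 after a start) in 2 of the 7 lower and 3 of the 7 higher genes, and in 6233 of 32851 promoters of the whole table (19%). The full palindrome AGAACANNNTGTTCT, which contains the half-site, was found in 3 of the 32851 and in none of the named genes. The pair below is shown because it comes from 1 gene of each direction, both of secreted or secretory-cell proteins. Capitals mark the half-site, which in Fstl3 lies on the other strand and reads TGTTCT, and both run 5′ to 3′ on the plus strand up to the base before the start.
Fstl3 (chr10:79777024-79777273, half-site at -179): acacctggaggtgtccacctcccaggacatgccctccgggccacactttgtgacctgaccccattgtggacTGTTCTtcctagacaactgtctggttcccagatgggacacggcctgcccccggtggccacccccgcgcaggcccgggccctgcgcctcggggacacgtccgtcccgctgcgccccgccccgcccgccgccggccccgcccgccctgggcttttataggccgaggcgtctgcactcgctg
Pigr (chr1:130826434-130826683, half-site at -114): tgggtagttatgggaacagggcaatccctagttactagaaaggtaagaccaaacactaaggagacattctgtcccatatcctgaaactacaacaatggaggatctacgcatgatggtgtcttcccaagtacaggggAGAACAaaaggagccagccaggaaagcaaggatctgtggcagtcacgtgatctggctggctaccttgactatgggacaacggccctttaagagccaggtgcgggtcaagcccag
A match of these letters is a description of the sequence, and receptor binding was not measured.

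Genes that androgen is known to induce in the prostate were mixed in sign. Of 29 tested, 20 had positive and 9 had negative estimates, 3 were higher and 1 was lower at an unadjusted p under 0.05, and the median log2 fold change was 0.17. Elovl7 was the member of smallest p. Hpgd, which inactivates prostaglandins, measured 11.6, 6.60 and 3.29 CPM with anti-CSF1 and 77.5, 9.66 and 19.9 CPM with Lupron/anti-CSF1, so its groups overlapped. Tmprss2, the androgen-driven protease whose promoter forms the fusion, measured 4.33, 4.36 and 2.48 CPM with anti-CSF1 and 11.3, 4.12 and 6.92 CPM with Lupron/anti-CSF1. Fkbp5, an androgen and glucocorticoid target, measured 195, 96.9 and 214 CPM against 156, 109 and 226 CPM. Ndrg1, which is induced by androgen and by hypoxia, was the 1 member lower at an unadjusted p under 0.05, 92.6, 226 and 125 CPM against 42.3, 106 and 22.5 CPM.

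Genes known to rise in the prostate after castration were also mixed. Of 21 tested, 9 had positive and 12 had negative estimates, with a median of -0.06, and no member separated the groups. Igfbp3, a binding protein of insulin-like growth factors, measured 137, 324 and 262 CPM with anti-CSF1 and 89.8, 154 and 71.7 CPM with Lupron/anti-CSF1. Sfrp1, a secreted WNT inhibitor, measured 17.0, 9.13 and 5.56 CPM against 31.4, 13.9 and 19.8 CPM. Of 16 steroid synthesis and metabolism genes tested, 12 had positive estimates, with a median of 0.15, and 15 further entries of the list were not tested, Cyp17a1 and Cyp11a1 of androgen synthesis among them. Hsd11b2, which inactivates glucocorticoids, was the 1 member with an unadjusted p under 0.05, at 0.973, 1.78 and 1.26 CPM against 0.580, 0 and 0.0339 CPM. Gnrh1, the gene of the hormone that Lupron mimics, measured 0.503, 0.468 and 0.700 CPM with anti-CSF1 and 1.62, 2.32 and 1.66 CPM with Lupron/anti-CSF1. Its log2 fold change of 1.73 ± 0.51 rests on 45 and 135 counts, and the receptor gene Gnrhr was too low to be tested.

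Glucose metabolism and hypoxia genes had the lowest median of the lists tested. Of 18 tested, 17 had negative estimates, 4 of them at an unadjusted p under 0.05, and the median log2 fold change was -0.58. Hk2, hexokinase 2 of the first step of glycolysis, measured 110, 107 and 127 CPM with anti-CSF1 and 65.6, 76.7 and 64.5 CPM with Lupron/anti-CSF1, a log2 fold change of -0.73 ± 0.15 and a DESeq2 adjusted p of 0.025. P4ha1, a collagen prolyl hydroxylase induced in hypoxia, measured 215, 278 and 240 CPM against 151, 205 and 134 CPM. Slc2a1, the glucose transporter GLUT1, overlapped between the groups with 158, 320 and 242 CPM against 103, 204 and 87.0 CPM. Replicate 2 was the highest library of its group for Slc2a1 in both groups. The mean of log2(CPM + 1) over the list was 6.10, 7.03 and 6.39 with anti-CSF1 and 5.50, 6.75 and 5.26 with Lupron/anti-CSF1, so the list level overlapped. The median was -1.17 without Lupron/anti-CSF1 replicate 2 and -0.34 without anti-CSF1 replicate 2. DESeq2 also called 3 other genes of sugar metabolism as lower, Pfkl, Pgm2 and Eno3, which lie outside the list and were chosen after their values were seen. Pfkl, the liver-type phosphofructokinase, measured 160, 139 and 173 CPM against 85.4, 109 and 93.2 CPM.

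Immediate early genes, the transcription factors switched on within minutes of a growth or stress signal, showed 16 negative estimates among 17 tested. Junb measured 132, 154 and 129 CPM with anti-CSF1 and 83.9, 112 and 84.1 CPM with Lupron/anti-CSF1, a log2 fold change of -0.57 ± 0.17. Klf4 measured 96.0, 105 and 90.2 CPM against 58.1, 79.8 and 55.5 CPM, and Jund 90.6, 77.7 and 96.5 CPM against 70.7, 51.9 and 64.9 CPM. The groups did not overlap in 4 of the 17, these 3 genes among them, and the list's median was -0.45. Over all genes tested, 5.34% were lower without overlap. Heat shock and unfolded protein genes had 14 negative estimates among 16 and a median of -0.29. Hspa1b, an inducible HSP70 gene with the near-identical copy Hspa1a, measured 36.2, 205 and 110 CPM against 30.2, 52.8 and 26.9 CPM, overlapping between the groups. Replicate 2 had the highest RNA integrity number of its group in both groups, 9.8 and 9.4, and the highest list levels for immediate early genes (5.34 and 5.07), heat shock genes (7.55 and 7.15) and hypoxia and glycolysis genes (7.03 and 6.75). RNA integrity overlapped between the groups, and its part in these values was not tested.

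Endothelial genes had 18 negative estimates among 19 tested, with 5 at an unadjusted p under 0.05 and a median of -0.41. Flt1, the VEGF receptor VEGFR1, measured 108, 110 and 152 CPM with anti-CSF1 and 85.5, 72.5 and 81.9 CPM with Lupron/anti-CSF1, a log2 fold change of -0.63 ± 0.18. Esam, an endothelial adhesion molecule, measured 9.29, 12.6 and 10.5 CPM against 7.58, 5.86 and 4.48 CPM. Cldn5, a tight junction claudin of vessels, measured 11.5, 23.5 and 13.9 CPM against 8.58, 10.5 and 5.94 CPM. The groups did not overlap in these 3 genes, the total among the 19, beside 5.34% lower without overlap over all genes tested. The list level was 4.81, 4.78 and 5.15 with anti-CSF1 and 4.81, 4.27 and 4.47 with Lupron/anti-CSF1, where Lupron/anti-CSF1 replicate 1 lay within the range of the anti-CSF1 libraries. Apln, a peptide made by sprouting vessels, was called lower by DESeq2 at 49.8, 54.8 and 59.9 CPM against 21.8, 36.8 and 25.7 CPM, and was chosen after its values were seen.

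Matrix and stromal genes were less uniform. Of 20 collagens and matrix remodelling genes, 12 had negative estimates and the median was -0.22. Thbs2, a thrombospondin, measured 69.1, 75.9 and 113 CPM with anti-CSF1 and 67.2, 27.7 and 23.5 CPM with Lupron/anti-CSF1. Lox, the collagen cross-linking oxidase, had a positive estimate, 19.8, 14.3 and 12.8 CPM against 65.3, 15.5 and 32.3 CPM, with overlap. Fibroblast and pericyte markers had a median of 0.01 over 18 genes, and no member separated the groups. Of 14 smooth muscle genes, 10 had positive estimates, with a median of 0.45. Myocd, the master activator of smooth muscle genes, measured 1.21, 1.41 and 1.26 CPM with anti-CSF1 and 4.21, 1.90 and 5.26 CPM with Lupron/anti-CSF1, whereas Smtn, smoothelin of contractile muscle, was lower in every combination library, 161, 187 and 208 CPM against 134, 126 and 112 CPM.

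**Figure D3:**
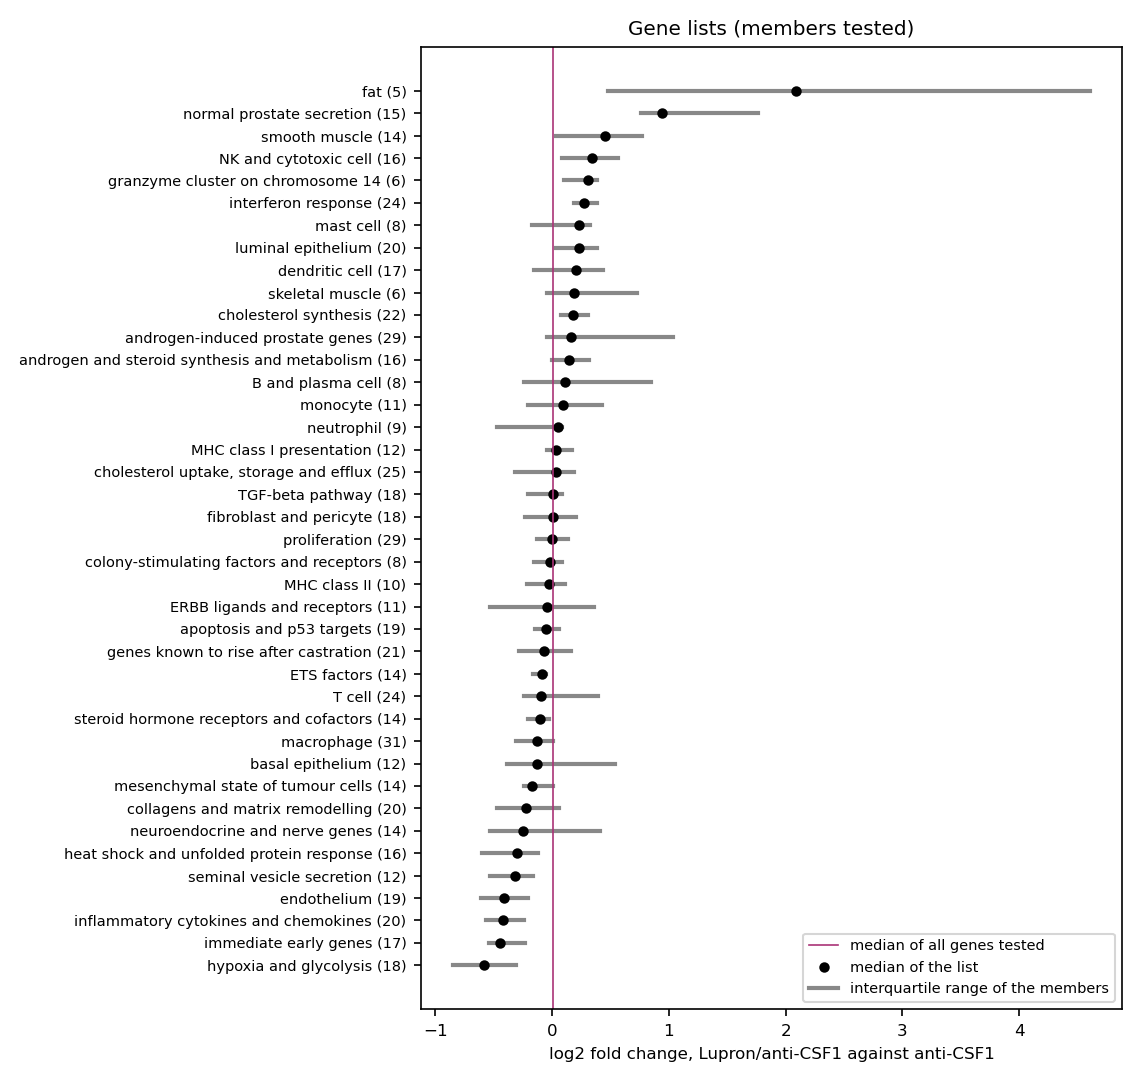
Median log2 fold change of Lupron/anti-CSF1 against anti-CSF1 for each list with at least 5 members tested (number in brackets), with a bar over the interquartile range of the members and a line at the median of all genes tested, 0.01. Hypoxia and glycolysis, immediate early, cytokine and endothelial genes lie lowest, at -0.58 to -0.41, and fat and normal prostate secretion highest, at 2.09 and 0.94.

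Among lists with at least 5 members tested, fat and normal prostate secretion genes had the highest medians, and their levels differed widely between libraries of the same group. Of 12 fat genes, 5 were tested, Car3 among them, with a median of 2.09. The median was 2.19 without Lupron/anti-CSF1 replicate 1 and 9.37 without replicate 2 of that group. In the fit of all 12 libraries, 12 fat genes were tested, with a median of 7.71. The filter on low counts was rerun for each fit, so these medians can cover different members. They do not measure the influence of a library. The adipocyte hormone Adipoq was at 0 CPM in all anti-CSF1 libraries and at 23, 0 and 2.21 CPM in the combination, and Cfd, the adipocyte protease adipsin, at 0, 0.187 and 0 against 76.3, 0.42 and 20.8 CPM. Defining fat markers were thus absent or nearly so in 4 of 6 libraries and present in Lupron/anti-CSF1 replicates 1 and 3. The list level was 0.70, 0.93 and 0.70 with anti-CSF1 and 3.85, 0.88 and 2.32 with Lupron/anti-CSF1. The part of fat tissue in the higher values of Car3, Apoc1 and Anxa13 was not tested. With the fat, seminal vesicle and prostate secretion genes left out before scaling, an alternative chosen after seeing the data, edgeR again called 0 genes.

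Of 15 prostate secretion genes tested, 12 had positive estimates, and 5 lay above the anti-CSF1 range in every combination library. Over all genes tested, 4.58% lay above it in this way. The median of the list was 0.94, which became 2.88 without anti-CSF1 replicate 1. The mean list level overlapped between the groups, at 4.89, 2.63 and 2.42 with anti-CSF1 and 4.45, 4.93 and 5.20 with Lupron/anti-CSF1. Summed over the list, anti-CSF1 replicate 1 was the highest library, with 6503, 2115 and 247 CPM against 1918, 4545 and 5723 CPM. Defb50, a defensin, measured 21.9, 2.90 and 17.5 CPM with anti-CSF1 and 215, 57.4 and 46.2 CPM with Lupron/anti-CSF1. Msmb, a major protein of prostate fluid, was at 0 counts in all anti-CSF1 libraries and at 88.6, 2.53 and 4.92 CPM in the combination, at least 889-fold higher when 3 counts over the anti-CSF1 group are taken as the limit. That limit was 106-fold without Lupron/anti-CSF1 replicate 1. Pbsn, the androgen-driven probasin, measured 528, 4.68 and 108 CPM with anti-CSF1 and 1010, 1460 and 1000 CPM with Lupron/anti-CSF1. Its log2 fold change of 2.44 ± 1.27 had a wide error because the anti-CSF1 libraries differed among themselves. Seminal vesicle genes separated no groups: 11 of 12 estimates were negative with a median of -0.32, yet the mean list level was 11.2, 9.65 and 3.28 with anti-CSF1 and 5.37, 9.74 and 10.6 with Lupron/anti-CSF1. The median turned to 1.12 without anti-CSF1 replicate 1. Luminal epithelium had 16 positive estimates among 20 and a median of 0.23, which was -0.14 without anti-CSF1 replicate 3 and 0.87 without anti-CSF1 replicate 1, while Krt8 had its negative estimate. The share of neighbouring normal tissue in each piece of tumour and the part it has in these values was not tested.

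**Figure D4:**
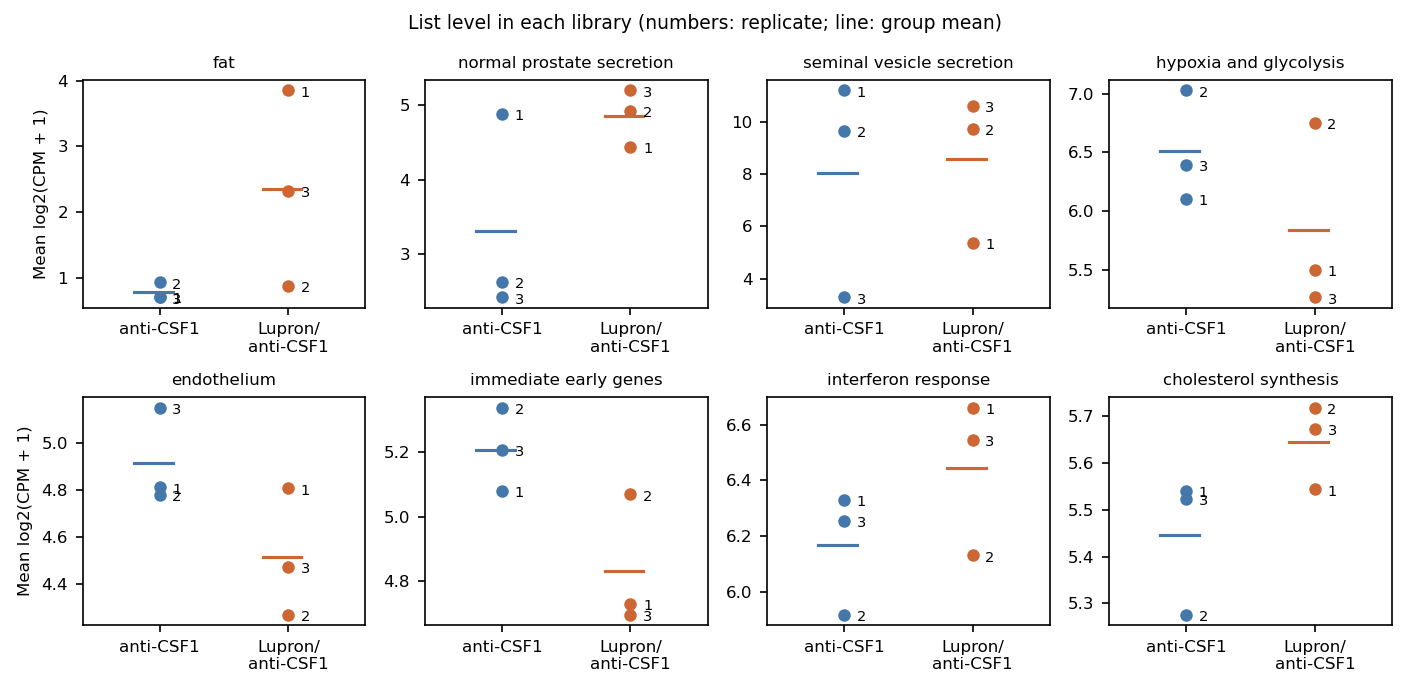
Mean of log2(CPM + 1) over the members of 8 lists in each library, with replicate numbers beside the points and a line at the group mean. Fat is high in Lupron/anti-CSF1 replicates 1 and 3, and seminal vesicle is low in anti-CSF1 replicate 3 and Lupron/anti-CSF1 replicate 1. The 2 groups overlap in the list levels of all lists shown except immediate early genes and cholesterol synthesis. In those 2, the nearest libraries of the groups stand at 5.08 and 5.07, and at 5.541 and 5.544.

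Lists of immune genes had medians from -0.42, for inflammatory cytokines and chemokines, to 0.35, for cytotoxic lymphocytes. Single members reached further, down to -2.53 among the cytokines and chemokines and up to 4.12 among dendritic cell genes. Of 31 macrophage genes tested, 22 had negative estimates, with a median of -0.13. Cd163, a haemoglobin scavenger receptor of resident macrophages, was the 1 member with an unadjusted p under 0.05, at 2.92, 4.36 and 4.34 CPM with anti-CSF1 and 6.11, 6.44 and 7.09 CPM with Lupron/anti-CSF1. Csf1r and its ligand Csf1 had log2 fold changes of -0.10 ± 0.34 and -0.08 ± 0.37, both of which turned positive on leaving out any of 3 libraries. F13a1, a transglutaminase of monocytes and some macrophages, measured 9.93, 10.0 and 9.80 CPM with anti-CSF1 and 5.68, 3.06 and 3.56 CPM with Lupron/anti-CSF1, a log2 fold change of -1.27 ± 0.29 and a DESeq2 adjusted p of 0.042. Kit, the stem cell factor receptor of mast cells, measured 8.59, 10.4 and 10.4 CPM against 5.06, 4.06 and 5.36 CPM, while other mast cell genes such as Mcpt4 and Cma1 overlapped.

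Cytotoxic lymphocyte genes had 14 positive estimates among 16 tested and a median of 0.35. Xcl1, a chemokine of NK and CD8 T cells that draws cross-presenting dendritic cells, measured 9.39, 12.8 and 10.8 CPM with anti-CSF1 and 19.0, 19.0 and 16.0 CPM with Lupron/anti-CSF1, a log2 fold change of 0.71 ± 0.19. Gzmb, granzyme B, overlapped between the groups with 20.2, 42.6 and 33.5 CPM against 59.6, 41.1 and 32.7 CPM. The granzyme cluster on chromosome 14 had a median of 0.31 that became -1.31 without Lupron/anti-CSF1 replicate 1 and 1.25 without anti-CSF1 replicate 2. T cell genes had 10 positive and 14 negative estimates. Havcr2, the inhibitory receptor TIM-3, was lower in every combination library, 10.6, 12.7 and 9.34 CPM against 6.53, 7.65 and 6.99 CPM, and Foxp3 of regulatory T cells was below 1 CPM throughout. Cd209a, a dendritic cell lectin, measured 0, 0 and 0.140 CPM with anti-CSF1 and 0.735, 0.580 and 1.46 CPM with Lupron/anti-CSF1.

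All 24 interferon response genes tested had positive estimates, with a median of 0.28, and 1 had an unadjusted p under 0.05. Isg15, a ubiquitin-like protein made after interferon signals, measured 223, 263 and 257 CPM with anti-CSF1 and 407, 311 and 292 CPM with Lupron/anti-CSF1. Iigp1, an interferon-induced GTPase, overlapped with 290, 193 and 187 CPM against 280, 336 and 425 CPM. The list level was 6.33, 5.92 and 6.26 with anti-CSF1 and 6.66, 6.13 and 6.55 with Lupron/anti-CSF1. Combination replicate 2 thus lay below anti-CSF1 replicates 1 and 3, and the median was 0.14 without Lupron/anti-CSF1 replicate 1 and 0.44 without replicate 2 of that group. Inflammatory cytokines and chemokines had 16 negative estimates among 20, with a median of -0.42 that was 0.03 without anti-CSF1 replicate 2. Cxcl5, a neutrophil-attracting chemokine, measured 0.973, 1.83 and 1.01 CPM with anti-CSF1 and 6.30, 3.80 and 2.75 CPM with Lupron/anti-CSF1, against the direction of its list. MHC class II and class I genes had medians of -0.03 and 0.04.

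Cholesterol synthesis, the pathway that supplies the precursor of all steroids, had 19 positive estimates among 22 and a median of 0.18, which was 0.03 without anti-CSF1 replicate 2. Idi1, isopentenyl diphosphate isomerase, measured 19.5, 21.0 and 20.8 CPM with anti-CSF1 and 30.7, 46.3 and 27.4 CPM with Lupron/anti-CSF1, a log2 fold change of 0.77 ± 0.22. Sc5d and Ebp, which act late in the pathway, separated the groups with log2 fold changes of 0.32 ± 0.16 and 0.26 ± 0.14. Of 25 genes of cholesterol uptake, storage and efflux, 13 had positive estimates and the median was 0.03. Cd36, a fatty acid and lipoprotein receptor also made by fat cells, measured 1.01, 1.69 and 1.57 CPM against 22.5, 1.64 and 4.48 CPM, in the same order as the fat genes. Proliferation genes were balanced, with 14 positive and 15 negative estimates and a median of 0.00. Ccne1, the cyclin of entry into S phase, measured 12.4, 13.5 and 16.7 CPM with anti-CSF1 and 20.3, 20.4 and 19.7 CPM with Lupron/anti-CSF1, while E2f1 had the opposite sign at 21.8, 22.6 and 27.1 CPM against 18.6, 19.3 and 16.1 CPM.

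The effect of Lupron in the presence of anti-CSF1 was set beside its effect without it, Lupron against IgG, in 1 fit of all 12 libraries. The pair of contrasts shares no library. EdgeR called 0 of 15082 genes (0%) for Lupron against IgG, while 2478 (16.4%) had an unadjusted p under 0.05 and 7720 (51.2%) a negative estimate. The test of the difference between the effects, the interaction, called 0 genes (0%), with 1021 (6.77%) at an unadjusted p under 0.05 and a smallest adjusted p of 0.488. DESeq2 called 188 genes for the interaction. Without IgG replicate 3, a library with high levels of normal tissue genes, edgeR's smallest adjusted p was 1.00 and 526 genes had an unadjusted p under 0.05. Across genes, the pair of effects had a Pearson correlation of -0.39 and a Spearman correlation of 0.04, and without IgG replicate 3 of -0.27 and 0.12. Genes are not independent replicates, and all effects come from 1 fit with shared scaling.

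Over all genes of the fit, 56.9% had the same sign in both contrasts, and 60.4% without IgG replicate 3. Of the 12 lower genes, 6 had the same sign in the contrast without the antibody, and 11 without IgG replicate 3. Pgr, on the scale of the 12 libraries, measured 3.01, 1.42 and 1.46 CPM with IgG and 1.76, 1.66 and 0.243 CPM with Lupron alone, a log2 fold change of -0.69 ± 0.69 beside -3.71 ± 0.77 with the antibody. The interaction for Pgr was -3.03 ± 1.01, with an edgeR adjusted p of 0.565. Fmo2 measured 36.6, 22.7 and 127 CPM with IgG and 33.0, 23 and 12.6 CPM with Lupron. Its log2 fold change of -1.44 ± 0.54 without the antibody became -0.38 ± 0.33 without IgG replicate 3. Cyp7b1 measured 10.9, 9.35 and 3.67 CPM with IgG and 9.77, 9.92 and 8.09 CPM with Lupron, a log2 fold change of 0.22 ± 0.37, smaller than its standard error. The Il8 row had the opposite sign, 7.00, 0.960 and 2.14 CPM with IgG and 38.3, 6.71 and 2.74 CPM with Lupron, where replicate 1 of Lupron stood far above the others.

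Of the 12 higher genes, 2 had the same sign without the antibody, and 3 without IgG replicate 3, beside the shares of 56.9% and 60.4% over all genes. Anxa13 measured 6.66, 17.7 and 60.5 CPM with IgG and 3.31, 1.95 and 1.18 CPM with Lupron alone, a log2 fold change of -3.71 ± 0.99. The interaction for Anxa13 was 9.49 ± 1.61, with an edgeR adjusted p of 0.488, and 8.27 without IgG replicate 3. Car3 measured 10.1, 188 and 1272 CPM with IgG and 12.3, 0.803 and 4.90 CPM with Lupron. The anti-CSF1 libraries were thus the lowest of the 4 groups for both genes, and the IgG libraries reached the highest levels. Serpinb9 had the same sign in both contrasts, 0.58 ± 0.30 with the antibody and 0.67 ± 0.30 without it. The latter was 0.34 ± 0.16 without IgG replicate 3. Over lists, hypoxia and glycolysis had a median of -0.59 with the antibody and 0.45 without it, the latter 0.12 without IgG replicate 3, and endothelium -0.41 and -0.09, the latter -0.36 without that library. EdgeR called 0 genes for the interaction, so no member of any list could be called. At an unadjusted edgeR p under 0.05 for the interaction were 11 of 12 fat genes and 8 of 15 smooth muscle genes. The same held for 0 of 29 proliferation genes and 0 of 24 T cell genes, beside 6.77% of all genes. These counts come from the fit that includes IgG replicate 3 and were not taken without it. Leaving that library out moved the median without the antibody from -6.00 to -3.29 for fat genes. For smooth muscle genes that median moved from -2.28 to -0.92.

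**Figure D5:**
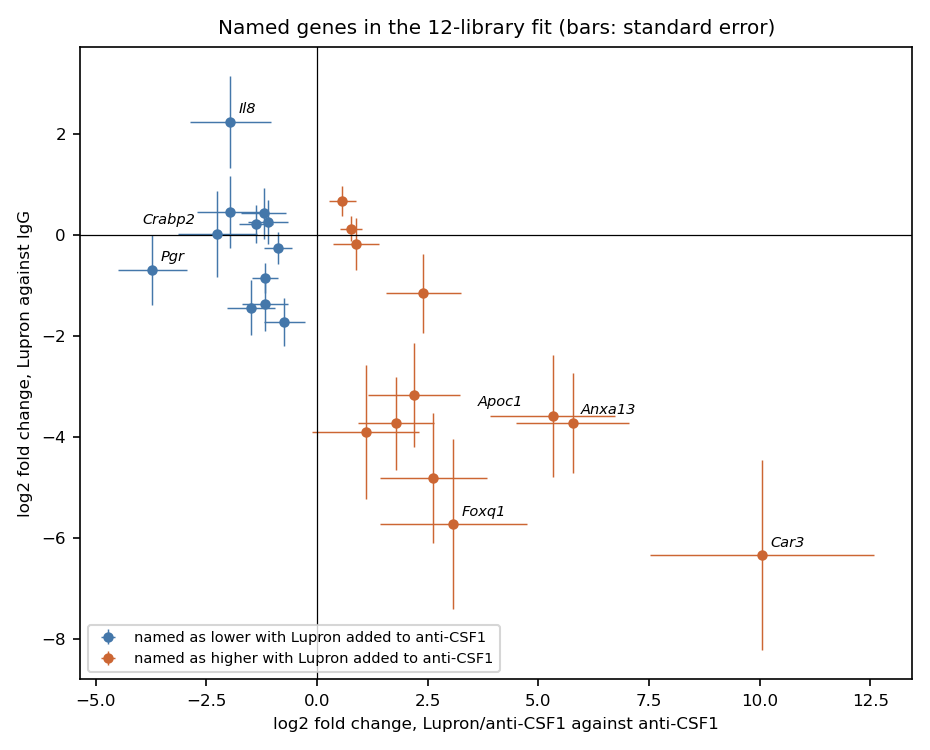
The 24 named genes by their log2 fold change for Lupron/anti-CSF1 against anti-CSF1 (x axis) and for Lupron against IgG (y axis) in 1 fit of 12 libraries, with bars of 1 standard error. Most higher genes lie below 0 on the y axis, down to Car3 at -6.34, while the lower genes scatter around 0. The genes were chosen on the x axis contrast.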

How the data were processed

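Bulk RNA was measured in prostate tumours, with a NuGen Ovation kit for mouse RNA-seq. The submitters' processing notes name bcl2fastq 2.20.0.422, cutadapt 1.8.1, HTSeq 0.6.1 and the build mm10. The sources used here do not give the aligner, annotation or strand setting, so antisense partners cannot be told apart. The deposited table holds raw counts for 23479 gene symbols, with no normalization by the authors. Gene coordinates come from RefSeq's GRCm38.p6, the same build.

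The 6 libraries were fitted alone in R 4.3.3 with edgeR 4.0.16: filterByExpr (14075 genes kept), TMM scaling, the robust quasi-likelihood fit and a two-sided F test with 4 residual degrees of freedom, with genes called where the Benjamini-Hochberg adjusted p was under 0.05. The biological coefficient of variation was 0.315. An exact permutation test of 3 against 3 cannot give a p under 0.1. The labels do not say that each library is a separate mouse, so p-values measure the spread between these samples. No pair among 15 looked like a duplicate (lowest chi-square per degree of freedom 38.0, genes with at least 20 counts). A gene at 0 in a group was set to 3 counts over the group for limits, which cover counting error only. The effect without the antibody and the interaction came from a fit of all 12 libraries (15082 genes). DESeq2 1.42.0, limma 3.58.1 (voom), other scalings and filters, a replicate block and leaving out each library were alternatives.

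The 42 lists hold 708 symbols, of which 7 were found under an older name and 8 did not match. Members and lists were chosen with earlier results of these data known. Named were Csf1, Csf1r and Erg, the 12 genes of smallest p in each direction with a mean of at least 1 CPM and no overlap, leaving out predicted genes (Gm, Rik and LOC names), antigen receptor segments and pseudogenes, and up to 4 members of smallest p per list, with any androgen-induced gene open to naming. Other genes are given for context: Krt18, Hoxb13, Pbsn, Esr1, Foxp3, Gzmb, Adipoq, Cfd, Mcpt4 and Cma1 among list members, and Greb1, Apln, Pfkl, Pgm2 and Eno3 from DESeq2's calls, and the predicted gene Gm4951. Some genes that these rules give are not reported here. The fits were tested on simulated data.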

Additional observations from a re-analysis of the deposited data

How the results depend on the processing

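Leaving out each library in turn gave 0 to 0 genes called by edgeR, in all and in each direction. RLE or upper-quartile scaling, the non-robust fit, voom, no filter, a stricter filter, the 12-library fit and leaving out non-tumour genes also gave 0. DESeq2 called 36 genes, 12 higher and 24 lower. The fit with a replicate block called 13 genes, 5 higher and 8 lower. Replicate numbers share only a number: deviations of same-numbered libraries correlated at -0.033, 0.551 and 0.099, and not every library correlated best with its own number (anti-CSF1 replicate 1 with combination replicate 3, 0.469). For the interaction, DESeq2 called 188 genes, 184 higher and 4 lower, the replicate block 0, and leaving out each library 0 to 5 in all, 0 to 2 higher and 0 to 3 lower, the calls arising without IgG replicate 1. The cause of these differences was not tested.

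The 24 genes named as lower or higher kept their sign in every alternative run. The naming rule admitted only genes without overlap between the groups, so leaving out a library was bound to keep their sign. Csf1 and Csf1r were named without that condition. Leaving out single libraries turned the sign of Csf1 (range -0.41 to 0.19) and Csf1r (-0.42 to 0.11), in each case without Lupron/anti-CSF1 replicate 2, anti-CSF1 replicate 1 or anti-CSF1 replicate 3. Over 668 pairs of a list and an alternative, the list median moved by more than its spread in 61. Leaving out 1 library turned the sign of the median in 26 of the 42 lists. The filter on low counts was rerun each time, so the members behind a median can differ. Genes under about 1 CPM rest on few counts, and the depth limits what can be said of them.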

Other observations

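Of the growth factor genes, 2 of 11 ERBB genes were lower without overlap. Among 18 TGF-beta pathway genes, 1 was higher and 1 lower in this way, beside 4.58% and 5.34% of all genes tested. Of 11 ERBB ligands and receptors tested, 6 had negative estimates, with a median of -0.04. Nrg1, neuregulin 1, measured 6.27, 7.40 and 6.30 CPM with anti-CSF1 and 3.60, 4.17 and 3.53 CPM with Lupron/anti-CSF1, a log2 fold change of -0.82 ± 0.26. Hbegf, a ligand of the EGF receptor, measured 46.1, 55.2 and 40.5 CPM against 21.8, 40.1 and 16.9 CPM, also without overlap. Of 18 genes of the TGF-beta pathway, 10 had positive estimates. Bambi, a decoy receptor of the pathway, measured 29.6, 38.1 and 35.3 CPM with anti-CSF1 and 47.2, 59.9 and 53.5 CPM with Lupron/anti-CSF1, a log2 fold change of 0.64 ± 0.17, and Bmp4 measured 3.89, 9.04 and 3.71 CPM against 2.71, 1.06 and 2.71 CPM. None passed edgeR's adjusted threshold.

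Among 19 apoptosis and p53 target genes, 11 had negative estimates, with a median of -0.05. Bbc3, the pro-apoptotic gene PUMA, measured 3.76, 2.11 and 2.66 CPM with anti-CSF1 and 1.08, 1.06 and 1.63 CPM with Lupron/anti-CSF1. Basal epithelium genes had 6 positive and 6 negative estimates, where Pkp1, a desmosome plakophilin, had a log2 fold change of -1.88 ± 0.77 and Trp63, the basal master regulator, one of 1.50 ± 0.63. Of 14 neuroendocrine and nerve genes tested, 8 had negative estimates, and Ncam1 measured 210, 156 and 261 CPM against 146, 115 and 166 CPM. Genes of a mesenchymal tumour state had 10 negative estimates among 14 and a median of -0.17, with no member at an unadjusted p under 0.05. ETS factors had 12 negative among 14 and a median of -0.09. Monocyte, neutrophil, dendritic, B and plasma, mast and skeletal muscle lists had medians between 0.06 and 0.23, all of which turned negative on leaving out 1 library: neutrophil ran from -0.27 without Lupron/anti-CSF1 replicate 2 to 0.86 without anti-CSF1 replicate 2, and skeletal muscle from -0.10 without Lupron/anti-CSF1 replicate 1 to 0.71 without anti-CSF1 replicate 3. Without anti-CSF1 replicate 1 the medians were 0.19 for monocyte, 0.70 for dendritic, 0.72 for B and plasma and 0.77 for mast cell genes, and the lowest values were -0.15 and -0.17 for monocyte and dendritic genes without Lupron/anti-CSF1 replicate 3, -0.07 for B and plasma genes without replicate 1 of that group, and -0.04 for mast cell genes without anti-CSF1 replicate 2. Medians were -0.10 for T cells (0.28 without anti-CSF1 replicate 1), -0.02 for colony-stimulating factors and receptors (0.10 without Lupron/anti-CSF1 replicate 2), and -0.13 for basal epithelium (0.11 without anti-CSF1 replicate 1). The red blood cell list had 1 member tested, Alas2, with a log2 fold change of -0.29.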
